A study of Homo sapiens with 12 samples.

Results

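The genes described here are the replication-dependent histone genes of human chromosome 6, which lie between 25 and 29 Mb of the hg38 build. They were chosen by name and place: protein-coding genes of the RefSeq table in that stretch with symbols that begin with H1-, H2AC, H2BC, H3C or H4C. The rule found 55 of 20037 coding genes, comprising 6 linker histone H1 genes, 12 H2A, 15 H2B, 10 H3 and 12 H4 genes. No other coding gene on chromosome 6 carried such a symbol. The first of them began 726 kb inside the 25 Mb limit and the last ended 1106 kb inside the 29 Mb limit, so no gene lay near a border of the rule. All were scored for peaks over the gene or 2 kb either side, by an overlap of at least 1 bp, and no filter on low values was applied.

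Chromatin immunoprecipitation followed by sequencing had been carried out in the established line H1, which comes from a human embryo and is pluripotent. In H1 cells given a short hairpin RNA against YTHDF1, the libraries were a YTHDF1 precipitate and an input. In wild-type H1 cells they were precipitates of YTHDF1, RNF2 and H2AK119ub and an input. Each of the 6 groups had 2 replicates, and the authors had merged the replicates of each precipitate into 1 peak list, so 4 lists were available and none had a spread between replicates. All cells were grown in mTESR1, a defined stem cell medium. The number of hairpins, clones and days of knockdown was not given in the labels, and all results come from 1 cell line.

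Replication-dependent histone genes supply the histones that package newly made DNA in S phase. Most are short genes without introns, and their mRNAs typically end in a stem-loop in place of a poly(A) tail. Many H2A and H2B genes stand head to head and share a promoter. RNF2 is an enzyme of Polycomb repressive complex 1 (PRC1), which attaches ubiquitin to histone H2A to give H2AK119ub, so the H2A genes of these clusters encode the protein that PRC1 modifies. YTHDF1 is a reader of N6-methyladenosine on RNA.

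The lists held 226 knockdown YTHDF1 peaks, 44498 wild-type YTHDF1 peaks, 29310 RNF2 peaks and 43331 H2AK119ub islands, and they carry no read totals, so sequencing depth was unknown. Of 7 stem cell markers, 6 were found by symbol. H2AK119ub was at all 6, beside 79.0% of all coding genes, and RNF2 at 4, beside 71.7%. Wild-type YTHDF1 was at 1, DNMT3B, beside 54.1%, and knockdown YTHDF1 at 0, beside 0.843%. NANOG and POU5F1 carried H2AK119ub but no RNF2 peak, and SOX2, LIN28A, DNMT3B and ZFP42 carried both. These peaks give no level of expression and cannot check the cell type. Since replicates were merged, comparisons are given as counts and values side by side, without a test. Neighbouring genes share peaks and are not independent units. Exact (Clopper-Pearson) 95% binomial intervals are given for the main shares. They treat the genes as independent, which shared peaks make untrue, so they describe the counts and do not measure error.

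The promoters of 50 of the 55 genes were listed in the RefSeq promoter table (GRCh38.p14), each as 250 bases before and 50 after the transcription start. H4C1, H4C3, H2AC12, H3C11 and H3C12 had no entry. They were searched on both strands for elements known from histone promoters, the TATA box (TATAAA), the CCAAT box (CCAAT) and the octamer (ATTTGCAT), and matches were allowed to overlap. The 7 below were picked after their peaks had been seen. Capitals mark matches to these elements on either strand, and each sequence runs 5′ to 3′ on the strand of its gene. The first 4 lay wholly or partly under RNF2 and wholly under H2AK119ub. They belong to H1-1 (chr6:26017738-26018037, minus strand), H2BC17 (chr6:27893175-27893474, plus strand), H3C10 (chr6:27809801-27810100, plus strand) and H4C4 (chr6:26189063-26189362, minus strand).
H1-1: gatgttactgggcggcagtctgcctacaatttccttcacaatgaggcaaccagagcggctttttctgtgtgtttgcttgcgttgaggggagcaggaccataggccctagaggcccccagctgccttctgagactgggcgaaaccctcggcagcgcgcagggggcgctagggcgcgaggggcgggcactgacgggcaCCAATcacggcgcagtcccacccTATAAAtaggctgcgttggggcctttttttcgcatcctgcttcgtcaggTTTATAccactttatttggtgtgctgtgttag
H2BC17: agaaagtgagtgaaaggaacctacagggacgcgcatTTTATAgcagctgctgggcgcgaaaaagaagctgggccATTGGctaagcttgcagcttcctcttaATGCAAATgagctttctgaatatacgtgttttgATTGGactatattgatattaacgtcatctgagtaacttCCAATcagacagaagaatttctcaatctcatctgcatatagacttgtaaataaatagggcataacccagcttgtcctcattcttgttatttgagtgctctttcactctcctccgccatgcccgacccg
H3C10: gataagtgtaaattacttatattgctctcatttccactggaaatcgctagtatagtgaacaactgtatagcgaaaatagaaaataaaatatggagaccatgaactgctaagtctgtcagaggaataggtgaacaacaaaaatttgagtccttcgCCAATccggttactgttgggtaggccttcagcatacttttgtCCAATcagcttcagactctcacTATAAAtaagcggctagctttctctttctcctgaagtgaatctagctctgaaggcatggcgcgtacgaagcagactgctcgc
H4C4: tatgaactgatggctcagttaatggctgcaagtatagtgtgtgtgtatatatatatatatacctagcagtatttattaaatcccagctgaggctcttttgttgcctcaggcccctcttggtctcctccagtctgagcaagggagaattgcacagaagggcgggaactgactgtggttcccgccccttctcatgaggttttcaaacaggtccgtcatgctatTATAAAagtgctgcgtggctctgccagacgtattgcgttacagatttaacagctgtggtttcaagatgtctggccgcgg
The promoter of H2AC16 (chr6:27865067-27865366, plus strand) lay under the widest H2AK119ub island of the clusters and carried no RNF2.
H2AC16: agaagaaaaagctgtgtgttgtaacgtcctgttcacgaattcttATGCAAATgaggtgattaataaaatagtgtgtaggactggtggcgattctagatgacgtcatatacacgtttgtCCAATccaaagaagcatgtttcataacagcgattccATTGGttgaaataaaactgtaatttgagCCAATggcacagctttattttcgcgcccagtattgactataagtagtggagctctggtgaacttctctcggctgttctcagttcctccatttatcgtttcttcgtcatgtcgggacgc
Those of H2BC1 (chr6:25726527-25726826, plus strand) and H2BC3 (chr6:26043664-26043963, minus strand) had no peak in any list.
H2BC1: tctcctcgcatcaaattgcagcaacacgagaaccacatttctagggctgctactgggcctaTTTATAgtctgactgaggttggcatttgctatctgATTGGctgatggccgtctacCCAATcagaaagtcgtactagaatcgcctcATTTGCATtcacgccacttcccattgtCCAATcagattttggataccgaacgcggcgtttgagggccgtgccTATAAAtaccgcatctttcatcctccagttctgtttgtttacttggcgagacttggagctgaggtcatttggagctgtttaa
H2BC3: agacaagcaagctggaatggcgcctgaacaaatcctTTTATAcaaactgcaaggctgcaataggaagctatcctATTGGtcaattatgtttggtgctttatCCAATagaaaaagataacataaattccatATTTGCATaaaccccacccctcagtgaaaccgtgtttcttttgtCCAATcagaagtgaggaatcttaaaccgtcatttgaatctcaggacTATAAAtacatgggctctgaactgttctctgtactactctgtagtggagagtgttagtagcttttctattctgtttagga

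H2AK119ub lay over nearly all of these genes, RNF2 at fewer than those that carried its mark, and YTHDF1 at none. An H2AK119ub island was present at 51 of 55 genes (92.7%, interval 82.4 to 98.0%), beside 79.0% of all coding genes. An RNF2 peak was present at 24 of 55 (43.6%, interval 30.3 to 57.7%), beside 71.7% of all coding genes. YTHDF1 was present at 0 of 55 in knockdown cells (interval 0 to 6.49%), against 0 of 55 in wild-type cells, beside 0.843% and 54.1% of all coding genes in these lists. No gene had YTHDF1, RNF2 and H2AK119ub together, beside 45.2% of all coding genes. The 2 YTHDF1 lists had unlike thresholds, with the lowest −log10 q at 1.502 in wild-type and 4.01 in knockdown cells. With wild-type YTHDF1 peaks limited to a −log10 q of at least 4, 0 of 55 stood beside only 4.12% of all coding genes. The combination of YTHDF1, RNF2 and H2AK119ub was then at 0 of 55, beside 3.85%.

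Histone genes are short, and a longer gene has a wider window, so these backgrounds were also taken from genes of like length. The 55 genes spanned 386 to 13229 bp with a median of 489 bp, beside a median of 24115 bp for all coding genes. Of the 55, 50 were at most 1000 bp long, and of these 46 carried H2AK119ub, 22 RNF2 and 0 YTHDF1. Among all 528 coding genes of at most 1000 bp the shares were 33.3% for H2AK119ub, 18% for RNF2, 0.189% for knockdown YTHDF1 and 8.90% for wild-type YTHDF1, and 3.98% had YTHDF1, RNF2 and H2AK119ub. The 528 include the 50 histone genes, which supply 46 of the 176 with H2AK119ub and 22 of the 95 with RNF2. The backgrounds of all coding genes, and those by length or equal windows, include the histone genes throughout. The histone genes had higher shares than this whole set of short genes for both PRC1 features, while their share with RNF2 was lower than that of all coding genes. Among 6958 coding genes no longer than the longest histone gene, the shares were 68.7%, 57.7%, 0.647% and 31.5% in the same order, and 25.7% had YTHDF1, RNF2 and H2AK119ub. Windows of equal width avoid the question of length. Within 2 kb of the start, 46 of 50 histone genes had H2AK119ub, 22 RNF2, 0 knockdown YTHDF1 and 0 wild-type YTHDF1, beside 75.5%, 68.2%, 0.492% and 24.4% of 15843 coding genes with a listed start. All of YTHDF1, RNF2 and H2AK119ub were within 2 kb of 0 histone starts and 20.7% of these starts.

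The other 40 coding genes of the same stretch, among them SLC17A transporters, butyrophilins and zinc-finger genes, gave a local background. H2AK119ub lay at 77.5% of them, RNF2 at 60.0%, knockdown YTHDF1 at 0 and wild-type YTHDF1 at 32.5%. All of YTHDF1, RNF2 and H2AK119ub were at 20% of them. Among the 31 of these neighbours that had H2AK119ub, 58.1% had no wild-type YTHDF1 peak. This was against 37.2% of all coding genes with the mark and 82.4% of those of at most 1000 bp, histone genes included. Of the 51 histone genes with the mark, all lacked a wild-type YTHDF1 peak. The 40 neighbours were not matched to the histone genes in length, and the part of window width in these shares was not tested.

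**Figure D1:**
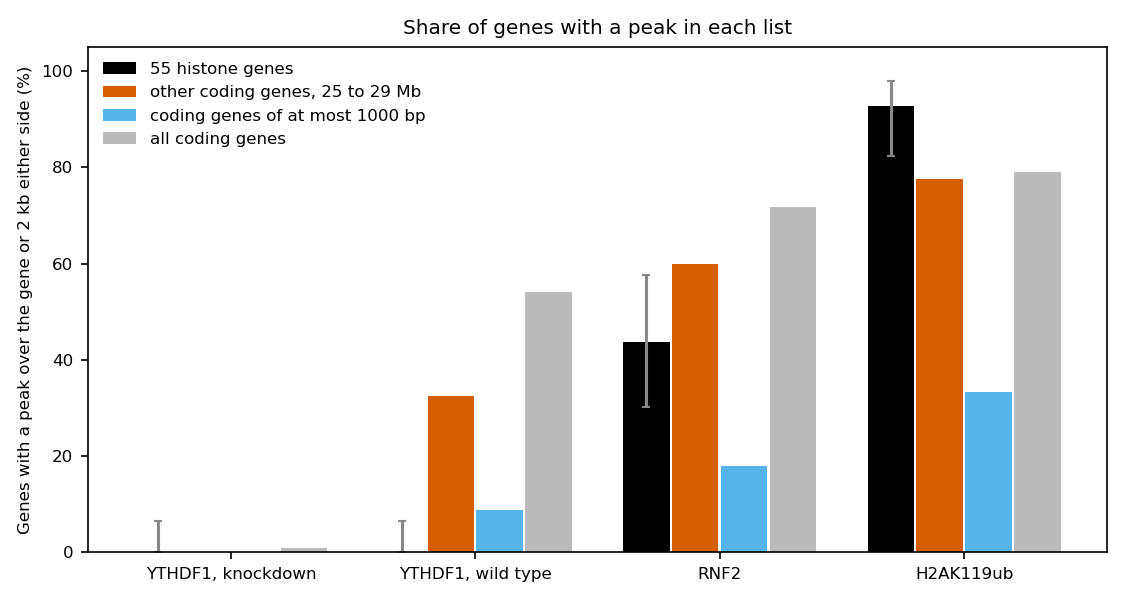
Percentage of genes with at least 1 peak over the gene or 2 kb either side in each of the 4 lists, for the 55 histone genes (black, with exact 95% binomial intervals), the 40 other coding genes between 25 and 29 Mb, 528 coding genes of at most 1000 bp and all 20037 coding genes. The last 2 sets include histone genes, and the intervals treat genes that share peaks as independent. The histone bars are at 92.7% for H2AK119ub and 43.6% for RNF2, and at 0 for YTHDF1 in knockdown and wild-type cells. The wild-type YTHDF1 list began at a lower −log10 q (1.502) than the knockdown list (4.01).

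The genes fell into 4 clusters, divided where neighbours lay over 200 kb apart. Cluster 1, at chr6:25726063-25727345, held only H2AC1 and H2BC1, whose older names TH2A and TSH2B mark them as testis histones. Cluster 2, at chr6:26017032-26285534, held 32 genes over 268.5 kb. Cluster 3, at chr6:27132316-27147562, held 5 genes over 15.2 kb. Cluster 4, at chr6:27807479-27893891, held 16 genes over 86.4 kb.

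H2AK119ub covered none of cluster 1, 48.4% of cluster 2, 85.6% of cluster 3 and 65.1% of cluster 4. All clusters together were covered over 53.6% of 371.4 kb, beside 20.4% of the rest of the stretch from 25 to 29 Mb and 8.38% of chromosome 6, counted up to its last gene or peak. RNF2 covered none of cluster 1, 4.37% of cluster 2, 3.58% of cluster 3 and 4.23% of cluster 4. Together that was 4.29%, beside 10.96% of the rest of the stretch and 2.35% of the chromosome. By number, RNF2 had 53.8 peaks per Mb in the clusters, beside 43.5 per Mb in the rest of the stretch and 9.75 per Mb on the chromosome. Wild-type YTHDF1 had 1 peak inside the clusters, or 2.69 per Mb, beside 17.6 per Mb in the rest of the stretch and 15.8 per Mb on the chromosome. This peak, at chr6:26179774-26180135, lay 3.63 kb from H2BC6. Its fold enrichment was 3.05 and its −log10 q was 2.18, and it touched neither an RNF2 peak nor an H2AK119ub island. Knockdown YTHDF1 had no peak between 25 and 29 Mb and 12 on the whole chromosome.

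**Figure D2:**
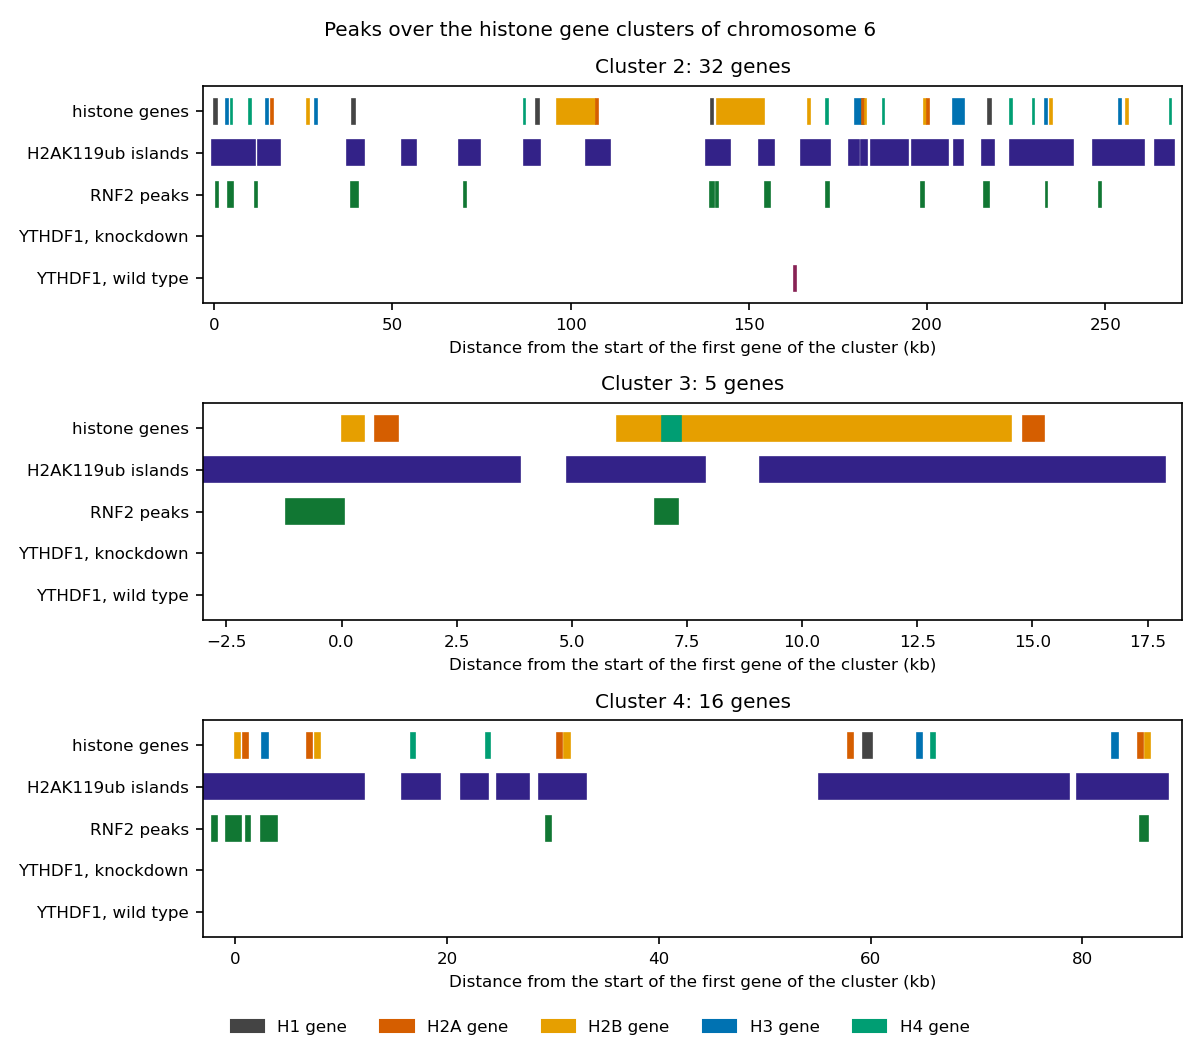
Map of histone gene clusters 2, 3 and 4, with distance in kb from the start of the first gene of each cluster on the x axis. Rows show the genes coloured by histone class, the H2AK119ub islands, the RNF2 peaks and the YTHDF1 peaks of knockdown and wild-type cells, each drawn to scale but at least as wide as its outline. H2AK119ub forms blocks over the genes, RNF2 forms narrow peaks in some of the blocks, and cluster 2 holds the only YTHDF1 peak, in wild-type cells, between genes.

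The distance from a histone gene to its nearest wild-type YTHDF1 peak ran from 3.63 kb at H2BC6 to 102.9 kb at H1-2, with a median of 60.3 kb. The median was 0.104 kb for all coding genes and 31.5 kb for those of at most 1000 bp. Only 3 of the 55 genes, H2BC6, H2BC5 and H4C4, had such a peak within 10 kb. The nearest knockdown peak lay between 5921 and 8088 kb away. Both YTHDF1 lists were thus at 0 at these genes, and the knockdown adds no comparison there.

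By class, H2AK119ub was present at 6 of 6 linker histone H1 genes, 11 of 12 H2A, 13 of 15 H2B, 9 of 10 H3 and 12 of 12 H4 genes. The H1 proteins bind the linker DNA between nucleosomes, and the other classes form the nucleosome core. RNF2 was present at 4 of 6 H1 genes, 5 of 12 H2A, 8 of 15 H2B, 3 of 10 H3 and 4 of 12 H4 genes. Every gene with RNF2 also had H2AK119ub, and 27 of 55 had H2AK119ub without RNF2. Of the 51 genes with the mark, 27 thus lacked RNF2, beside 12.8% of all coding genes with the mark and 46.6% of those of at most 1000 bp. Both of these backgrounds include the histone genes.

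The genes with both features were H1-1 to H1-4, H2AC8, H2AC11, H2AC13, H2AC15, H2AC17, H2BC5, H2BC8, H2BC9, H2BC11, H2BC12, H2BC13, H2BC15, H2BC17, H3C1, H3C7, H3C10, H4C1, H4C2, H4C4 and H4C9. Those with H2AK119ub alone were the linker histones H1-5 and H1-6, 6 H2A genes (H2AC4, H2AC6, H2AC7, H2AC12, H2AC14 and H2AC16) and 5 H2B genes (H2BC4, H2BC6, H2BC7, H2BC10 and H2BC14). With them were 6 H3 genes (H3C2, H3C4, H3C6, H3C8, H3C11 and H3C12) and 8 H4 genes (H4C3, H4C5, H4C6, H4C7, H4C8, H4C11, H4C12 and H4C13). Their nearest RNF2 peak lay between 2.12 kb away at H3C12 and 31.5 kb away at H2AC6.

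The counts were also taken with other windows and peaks. With flanks of 5 kb, RNF2 was at 31 of 55 genes, beside 73.5% of all coding genes, and wild-type YTHDF1 was at 1, H2BC6, beside 59.2%. That gene then had YTHDF1, RNF2 and H2AK119ub, beside 49.7%. With only the better-scoring 50% of its peaks, RNF2 was at 7 of 55 genes, beside 56.4%, and within 500 bp of the start it was at 14 of 50, beside 66.6%. Counted by island midpoints, H2AK119ub was at 36 of 55 genes, beside 69.4%, where an island counts only at genes whose window holds its midpoint.

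The 27 distinct islands at these genes were 1.6 to 23.6 kb wide with a median of 6.0 kb, beside 4.6 kb for the whole list. Their deposited scores ran from 9.12 to 210 with a median of 56.9, beside 24.2 for the list. One island could hold up to 5 of the genes, and 19 of the 27 lay at more than 1 gene. The island covered the entire gene in 44 cases and part of it in 7. Of the window of gene and flanks, the median cover was 95.2%, beside 15.3% for all coding genes and 0% for those of at most 1000 bp. The lowest cover among marked genes was 30.7% at H2BC4, which spans 10757 bp.

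The widest island, of 23.6 kb at chr6:27862601-27886200, had the highest score, 210, and held H2AC16, H1-5, H3C11 and H4C13. H1-5 is a somatic linker histone. No RNF2 peak lay within it, and the nearest was 19.4 kb from H4C13. An island of 17.8 kb at chr6:26240201-26258000 held H4C6, H4C7, H3C7 and H2BC9 with 1 RNF2 peak of 299 bp. Another, of 17.4 kb at chr6:27802201-27819600, held H2BC13, H2AC13, H3C10, H2AC14 and H2BC14 with 4 RNF2 peaks. Across all 27 islands, 14 (51.9%) held an RNF2 peak and 0 a wild-type YTHDF1 peak, beside 39.9% and 21.6% of all islands. Width was taken into account, since wide islands have more room for peaks. Of the 14 that were at least 6.0 kb wide, 9 held RNF2 and 0 YTHDF1, beside 61.4% and 36.8% of all islands of that width.

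Most RNF2 peaks at the histone genes lay below the median of their list in fold enrichment. The 19 distinct peaks had fold enrichments of 2.86 to 4.13 with a median of 3.20, and 14 lay below the list median of 3.74. Their widths ran from 299 to 2025 bp with a median of 829 bp, beside 1347 bp for the list. The −log10 q ran from 4.26 to 10.4, where the list began at 4.01. Ranked by fold within the list, their median percentile was 30.8 and the highest 58.6.

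The highest RNF2 peak at the histone genes, of 4.13-fold and 1342 bp wide, was shared by H3C1 and H4C1 at chr6:26020908-26022249. Its summit lay 1330 bp past the start of H3C1, beyond the end of that gene and within H4C1, all of which the peak covered. H3C10 carried the next, at 3.96-fold and 1495 bp, with its summit 74 bp past its start. The same peak was the highest in the windows of H2AC13 and H2BC13, whose shared promoter lay partly under another peak of 3.29-fold. Among the linker histones, H1-1 had a 3.82-fold peak with its summit at −138 bp from the start, negative values being upstream. H1-3 had one of 3.39-fold with its summit at 921 bp, past the end of the gene. H4C4 had a 3.80-fold peak with its summit at −45 bp, and H4C9 one of 3.79-fold with its summit at 71 bp, inside the long span of H2BC12. H2AC17 and H2BC17 shared a 3.29-fold peak of 720 bp over their common promoter.

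**Figure D3:**
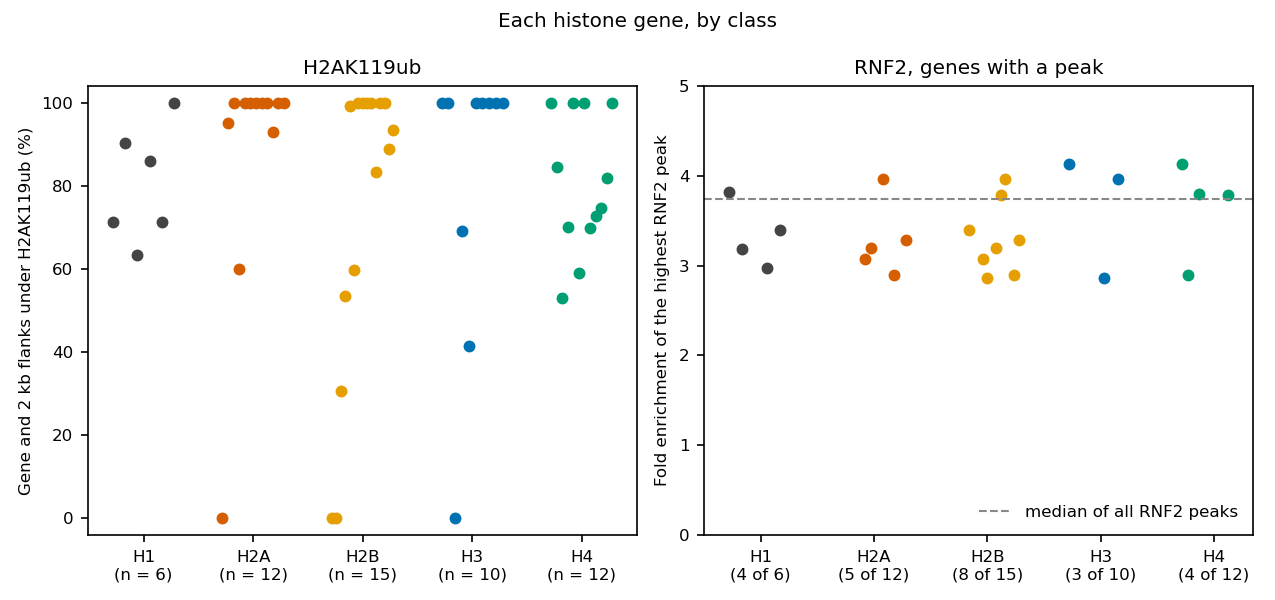
Each histone gene by class. The left panel gives the percentage of the gene and its 2 kb flanks under H2AK119ub for all 55 genes, with 4 genes at 0 and the lowest other gene at 30.7%. The right panel gives the fold enrichment of the highest RNF2 peak for the 24 genes that had one, from 2.86 to 4.13, with the median of all RNF2 peaks (3.74) as a dashed line.

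RNF2 lay over the start of few histone genes. A peak covered the start base of 11 of 50 histone genes (22%), beside 62.9% of coding genes. H2AK119ub covered 44 of 50 starts (88%), beside 70.2%, knockdown YTHDF1 covered 0, beside 0.284%, and wild-type YTHDF1 covered 0, beside 11.8%. Of the 23 genes with both RNF2 and a known strand, the summit of the highest peak lay upstream of the start in 11, within the gene in 5 and past its end in 7. A shared peak was counted at each of its genes, and 12 of the 19 distinct peaks lay at more than 1 gene. The peak at the start of H3C10 was thus also counted as upstream of H2BC13 and past the end of H2AC13. H2BC5 was counted as past its end, though another RNF2 peak covered its promoter. H1-2 and H1-4 had summits at −16 bp and 173 bp from their starts, and H4C2 and H2BC15 had theirs at −1465 bp and −1420 bp.

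**Figure D4:**
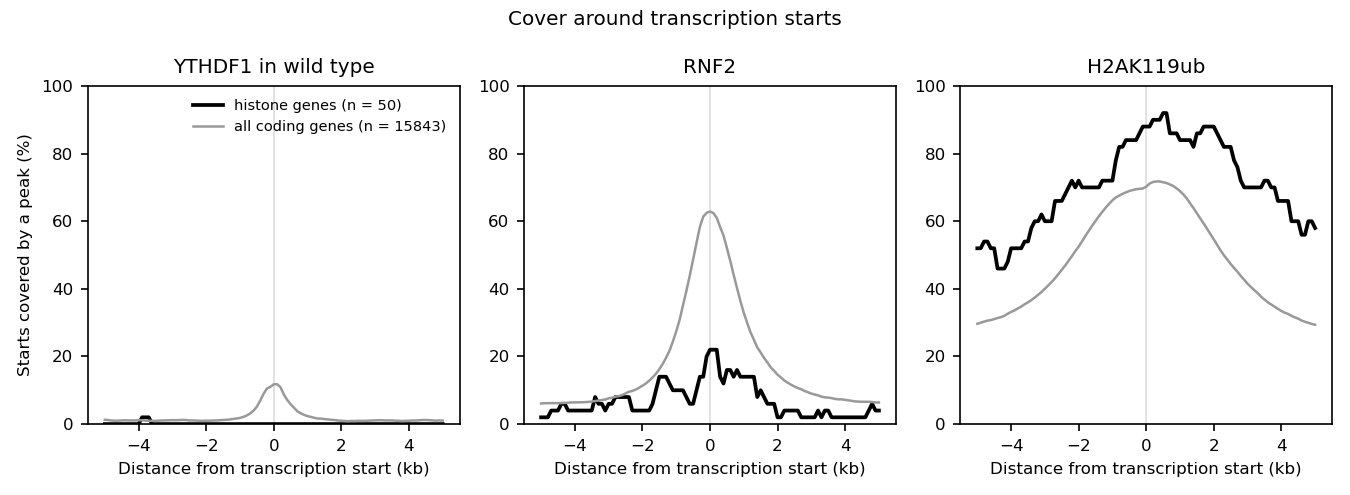
Percentage of transcription starts whose surroundings lay under a peak, at distances from 5 kb upstream to 5 kb downstream in steps of 100 bp, for 50 histone genes (black) and 15843 coding genes (grey). At the start itself the histone curve is at 0 for wild-type YTHDF1, 22% for RNF2 and 88% for H2AK119ub, and the curve of all coding genes is at 11.8%, 62.9% and 70.2%.

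The head-to-head H2A and H2B genes with a listed strand were looked at as 9 pairs, with starts 194 to 248 bp apart. H2AC12, which lies next to H2BC12, had no listed strand and was left out. H2AK119ub covered the entire stretch between the starts in 8 pairs and none of it in H2AC1 and H2BC1. RNF2 was in the window of both genes in 5 pairs, but it lay between the starts in 2 of them, H2BC13 with H2AC13 and H2AC17 with H2BC17. In the other 3 pairs it lay to one side. At H2BC8 and H2AC8 the summit was 1063 bp past the start of H2BC8, beyond its end. At H2BC11 and H2AC11 it was 933 bp past the start of H2BC11, and at H2AC15 and H2BC15 it was 1226 bp past the start of H2AC15, in each case again beyond the end of the gene.

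The genes that lacked both PRC1 features were H2AC1, H2BC1, H2BC3 and H3C3. H2AC1 and H2BC1 encode testis histones, stood alone in cluster 1 and lay 73.1 and 73.8 kb from the nearest island and over 236 kb from the nearest RNF2 peak. H2BC3 and H3C3 encode core histones H2B and H3 and lay next to each other inside cluster 2, 7.83 and 8.33 kb from the nearest island. H1-6, which is also a testis gene and encodes the linker histone H1t, differed from H2AC1 and H2BC1 in lying under a 4.4 kb island, without RNF2.

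Histone promoters were poor in G and C for coding genes, a feature the selection did not use. Their median GC content was 42.5%, beside 64.7% for all coding genes, and they held a median of 11 CpG dinucleotides in 300 bases, beside 24. The TATA box was found in 34 of 50 (68.0%), beside 12.4% of coding genes, the CCAAT box in 43 (86.0%), beside 42.1%, and the octamer in 22 (44.0%), beside 2.22%. By class, the CCAAT box was in all 6 H1, 11 H2A, 15 H2B and 8 H3 genes with a listed promoter, but in 3 of 10 H4 genes (30.0%). The octamer was in 12 of 15 H2B and 9 of 11 H2A promoters, many of them the same stretch read from either gene, in 1 of 8 H3 genes, H3C4, one of whose starts is that of H2AC7, and in no H1 or H4 promoter. A match is a description of the letters, not of a bound site. As background, the octamer is known as a binding sequence of POU2F1, a factor of H2B transcription. The octamer was in 8 of 23 promoters of genes with RNF2, in 11 of 23 of genes with H2AK119ub alone and in 3 of 4 of genes with neither. The median GC content of the same groups was 43.0%, 42.3% and 44.7%, which overlapped widely: the RNF2-bearing H1-1 promoter had 58.0% and that of H3C7 36.7%, and the unmarked H2BC1 and H2BC3 promoters had 47.3% and 38.7%.

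Shares with RNF2, H2AK119ub and wild-type YTHDF1 were higher among coding genes with more promoter CpG, so the histone genes were set beside genes of like CpG content. Coding genes, with the histone genes among them, were divided at the quartiles of promoter CpG into 4 classes. The lowest class, with 0 to 11 CpG, held 28 of the 50 histone genes. Within 2 kb of their starts, 26 of these 28 had H2AK119ub, beside 37.2% of the class, 12 had RNF2, beside 17.0%, 0 had knockdown YTHDF1, beside 0.147%, and 0 had wild-type YTHDF1, beside 9.94%. The next class, with 12 to 24 CpG, held 21 histone genes. Of these 19 had H2AK119ub, beside 78.3%, 9 had RNF2, beside 74.0%, 0 had knockdown YTHDF1, beside 0.435%, and 0 had wild-type YTHDF1, beside 23.2%. The share of histone genes with RNF2 was thus above that of the lowest class and below that of the next, while the share with YTHDF1 was at 0 in both. The remaining gene with a listed promoter, H1-4, had 25 CpG, RNF2 and H2AK119ub.

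Many histone genes of a class have near-identical coding sequences, so reads within them can fit several copies. The sources used here do not say how such reads were treated, and their part in the peak calls was not tested. Without flanks, the islands covered some or all of 51 of 55 genes, beside 77.6% of all coding genes, and RNF2 some or all of 17 of 55, beside 69.8%.

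Histone genes elsewhere were counted by the same rule. The 15 replication-dependent genes outside chromosome 6 had H2AK119ub at 12, RNF2 at 3, knockdown YTHDF1 at 0 and wild-type YTHDF1 at 3. Beside these counts stood 79.0%, 71.7%, 0.843% and 54.1% of all coding genes, in the same order. Coding genes of at most 1000 bp had lower shares in every list, as given above. The YTHDF1 count rested on 1 peak of 3.09-fold shared by H2BC21, H2AC20 and H2AC21 on chromosome 1, under a 6.0 kb island without RNF2. H2AC25 and H2BC26, also on chromosome 1, shared a 4.21-fold RNF2 peak within an island of 77.4 kb. H3C14, H3C15 and H4C14 had neither PRC1 feature. Of these 15 genes, 9 had H2AK119ub without RNF2. Among coding genes with the mark, 12.8% of all and 46.6% of those of at most 1000 bp lacked RNF2.

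The 12 replacement and variant histone genes, most of which are expressed outside S phase too, had RNF2 and H2AK119ub at 11, knockdown YTHDF1 at 0 and wild-type YTHDF1 at 6. Among all coding genes the shares were 71.7% for RNF2, 79.0% for H2AK119ub, 0.843% for knockdown YTHDF1 and 54.1% for wild-type YTHDF1. These 12 genes are longer than most of the chromosome 6 histone genes, with wider windows, so the counts of the 2 groups do not compare. MACROH2A2 and MACROH2A1, which encode large H2A variants, had RNF2 peaks of 19.5-fold and 13.1-fold. H1-10, a replacement linker histone, had a 4.06-fold YTHDF1 peak 2287 bp wide with a −log10 q of 5.21. H2AZ1 and H3-3A, for the variants H2A.Z and H3.3, had YTHDF1 peaks of 2.95-fold and 2.84-fold. H3-5 had none of the marks. No gene of this group had H2AK119ub without RNF2.

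The 13 factors that serve histone gene transcription and mRNA 3′ end processing had RNF2 at 13, H2AK119ub at 12, knockdown YTHDF1 at 0 and wild-type YTHDF1 at 8. The shares of all coding genes were 71.7%, 79.0%, 0.843% and 54.1% in the same order. SLBP, which binds the stem-loop of histone mRNA, had the YTHDF1 peak of highest fold among them, at 4.49-fold with a −log10 q of 7.09, and a 7.94-fold RNF2 peak. NPAT, the activator that gathers at histone loci, had a 3.05-fold YTHDF1 peak and a 5.64-fold RNF2 peak. LSM11, of the U7 particle that processes histone mRNA, had YTHDF1 at 3.33-fold, and CPSF3, the nuclease of that reaction, at 3.12-fold. CASP8AP2 and HINFP, the second of which activates H4 genes, had RNF2 but no YTHDF1 peak. These genes are longer than the histone genes, with wider windows, and their counts do not compare with those above.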

How the data were processed

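The submitters' processing notes name hg38 and SICER 1.1, MACS2 2.1.0, Picard, SAMtools 1.3.1, Trimmomatic 0.35 and Bowtie2 2.2.5, without roles or settings. Each list was made by the authors from merged replicates. The YTHDF1 and RNF2 lists give, as deposited by the authors, a fold enrichment, a −log10 q and a score. The H2AK119ub list gives a deposited score of unstated scale, and its islands are multiples of 200 bp. These values were used within a list only.

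Genes came from RefSeq (GRCh38.p14, the same assembly) on the 22 autosomes, X and Y, and strands from its promoter table. Overlaps, cover and distances were computed with Python 3.11.15, numpy 2.4.6 and pandas 2.3.3, and checked against brute force on simulated intervals and against bedtools. Depth per library was unknown, so precision could not be judged. No test was run, because replicates were merged. The members, gene lists and named genes were chosen with earlier results of these data known. The rule for named genes took the 2 of each class with the highest RNF2 fold, those with the strongest YTHDF1 peak (none had one) and those without RNF2 and H2AK119ub, and others were named after their values were seen. Backgrounds by gene length, equal windows and CpG classes were added after seeing the data. The input libraries were not analysed here.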

Additional observations from a re-analysis of the deposited data

How the results depend on the processing

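Counts of genes were repeated without flanks, with 5 kb flanks, with peak midpoints, with the better-scoring 50% of each list, with a −log10 q minimum of 4 for YTHDF1, within 500 bp of the start and, added after the data had been seen, within 2 kb of the start. A count was taken as near the reported one within 1.5 times of it, and a cover within the exact 95% binomial interval over the bases of the clusters, which is narrow. Neighbouring bases share peaks and are not independent, so that interval serves as a labelling rule only and does not measure error. By these limits 34 of the repeats were near and 10 were not. With 5 kb flanks, wild-type YTHDF1 and the combination of YTHDF1, RNF2 and H2AK119ub were each at 1 gene, H2BC6, against 0 as reported. RNF2 was at 7 genes with the better-scoring 50% of each list and at 14 of 50 within 500 bp of the start. As 1 interval from the first to the last gene, the clusters were covered over 0.636% by wild-type YTHDF1, 8.21% by RNF2 and 27.7% by H2AK119ub. With the better-scoring 50%, RNF2 covered 0.899% and H2AK119ub 45.7%. With clusters extended by 2 kb, RNF2 covered 4.74%. Within the limit of 1.5 times, the count of genes with H2AK119ub still ran from 36, by midpoints, to 51, and that with RNF2 was 17 without flanks and 31 with 5 kb flanks, against 24 as reported.

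No paired analysis was possible because the authors merged the replicates of each group into 1 list, and for the same reason no replicate was left out. Depth is unknown, so a missing peak means only that none passed the authors' threshold. The lowest deposited value was a lower −log10 q for wild-type YTHDF1 (1.502) than for RNF2 or knockdown YTHDF1 (4.01 each).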

Other observations

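Histone pseudogenes of the same stretch, which no comparison above used, were counted by the same rule. Of 11, 7 had H2AK119ub, 3 RNF2, 0 knockdown YTHDF1 and 2 wild-type YTHDF1. The shares of all coding genes were 79.0%, 71.7%, 0.843% and 54.1% in the same order. Of the 7, all but H3C9P had islands already counted at the histone genes, so these counts are not independent of those above. The RNF2 peaks at H2AC9P and H4C10P were likewise those already counted at H1-3 and H2BC13. The 2 with wild-type YTHDF1, H2AC3P and H3C9P, had peaks of 2.81-fold and 2.73-fold, and both lay outside the clusters. H2AC5P, between H2BC3 and H3C3, had no peak in any list, like both of its neighbours. H2BC2P and H2AC2P, next to H2AC1 and H2BC1, had none either.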
